A study of Rattus norvegicus with 56 samples.

Results

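Vagotomized rats challenged with LPS were set against sham-operated rats given the same challenge, and the comparison was described over all transcripts of the medial hypothalamus. Of the 56 arrays of the series, 9 were chosen by their labels alone: 5 arrays of vagotomized rats injected with LPS (VG LPS, arrays 9, 10, 11, 12 and 46) and 4 of sham-operated rats injected with LPS (SH LPS, arrays 5, 6, 7 and 42). All were male Wistar rats 3 months old, weighing about 300 g, with 1 Affymetrix rat gene array per rat. In VG rats the vagus nerve had been cut on both sides below the diaphragm, and in SH rats the same operation left it whole. After 30 days of recovery every rat of both groups received 10 µg of LPS i.p. in 100 µl of saline, and the hypothalamus was taken 120 min later. The 3 VG NaCl, 4 SH NaCl and 5 CNT arrays served as background: the NaCl rats had the same operations followed by saline, and the CNT rats had no procedure. Subdiaphragmatic vagotomy spares the vagal branches of the chest and neck, so these rats kept part of the nerve. The comparison asked whether the hypothalamus of rats given LPS differs without these nerves. Any standing difference between the operations is part of it. Whether the answer to LPS itself differs was asked with the saline groups, further below.

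LPS, the endotoxin of Gram-negative bacteria, is bound by CD14 and the MD-2 protein and recognised by Toll-like receptor 4. From there one route leads through the adaptors TIRAP and MyD88 to NF-kB, whose targets include cytokines, chemokines and its own inhibitors, and another to interferon, whose targets are antiviral proteins and chemokines. Word of inflammation in the abdomen can reach the hypothalamus through sensory fibres of the vagus and through the blood, where brain endothelium and perivascular cells answer with prostaglandins. The paraventricular nucleus then drives the pituitary and adrenal glands, and the glucocorticoid released induces its own set of target genes.

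Values are log2 of the deposited RMA intensity of a transcript cluster, the probes of 1 transcribed region. A difference is the mean of VG LPS minus the mean of SH LPS in log2 units with its standard error (SE), from limma over the 21 arrays of the 5 groups, and p-values were adjusted by the Benjamini-Hochberg method across the 36685 clusters. With all arrays, every gene named below other than Krtap10-9 and Spnl1 had an adjusted p of 1 for this difference. Only clusters with exactly 1 gene symbol stand for genes, and a gene with several of these is shown by its brightest, which gave 14557 genes. A listed gene is called measured below if it had such a cluster. Of 497 listed genes 142 had none, which does not mean that the array holds no probes for them. The level of a gene list in an array is the mean over its genes of the log2 value minus the mean of that gene in the 9 LPS arrays.

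Of the 9 arrays, 4 stood apart or went against their labels. The array labelled VG LPS 46 correlated with the other 8 between 0.932 and 0.950, against 0.951 to 0.975 among those 8, and 135 genes lay over 2 log2 units from the mean of the others, whereas 0 to 13 genes did so in any other array. Its tissue markers differed as well: Oxt, the oxytocin gene of the magnocellular neurons, stood at 4.95 in this array and between 9.37 and 9.82 in the other VG LPS arrays, and Ttr, the transthyretin gene of the choroid plexus, at 11.67 and between 4.27 and 5.04. The arrays labelled VG LPS 11, VG LPS 12 and SH LPS 6 carried interferon response genes at levels of -1.62, -1.50 and -1.71, within the range of -1.89 to -1.38 of the 7 saline arrays of operated rats. CNT array 4, of a rat labelled as given nothing, stood at 0.91 on the same scale, against -1.92 to -1.67 in the other 4 CNT arrays. The array numbers start again at array 41 in the sequence of groups, so VG LPS array 46 and SH LPS array 42 were numbered in a second set of arrays. Results are given with all arrays and without array 46, and those that do not rest on LPS-induced genes were also computed without arrays 11, 12, 6 and CNT 4.

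With all 9 arrays, limma called 0 of 36685 transcript clusters (0%) at an adjusted p under 0.05, and 1518 (4.14%) had an unadjusted p under 0.05, of which 896 were higher (2.44%) and 622 lower (1.7%) in VG LPS. The methods' analysis of variance without moderation also called 0, with 1542 at an unadjusted p under 0.05. For 232 clusters every VG LPS array lay above every SH LPS array (0.632%) and for 168 every one lay below (0.458%), together 400 clusters without overlap (1.09%). Without array 46 limma again called 0 (0%), with 1857 at an unadjusted p under 0.05 (5.06%), of which 1046 were higher (2.85%) and 811 lower (2.21%). Of 930 clusters without overlap in that fit (2.54%), 543 lay above (1.48%) and 387 below (1.05%). The smallest adjusted p was 0.135 with array 46 and 0.361 without it. Among the 14557 genes, 310 were higher (2.13%) and 235 lower (1.61%) at an unadjusted p under 0.05, together 545 (3.74%), and every VG LPS array lay above every SH LPS array for 103 (0.708%) and below for 73 (0.501%). Without array 46 there were 334 higher (2.29%) and 278 lower (1.91%), together 612 (4.2%), with 238 above (1.63%) and 149 below (1.02%) without overlap, and 350 genes were under 0.05 in both fits. All counts of p-values under 0.05 for single genes below are unadjusted and are to be read against these shares. The difference was above 0 for 46.4% of the genes and for 50.5% without array 46, with medians of -0.02 and 0.00, and it changed sign for 2575 genes when array 46 was left out.

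**Figure D1:**
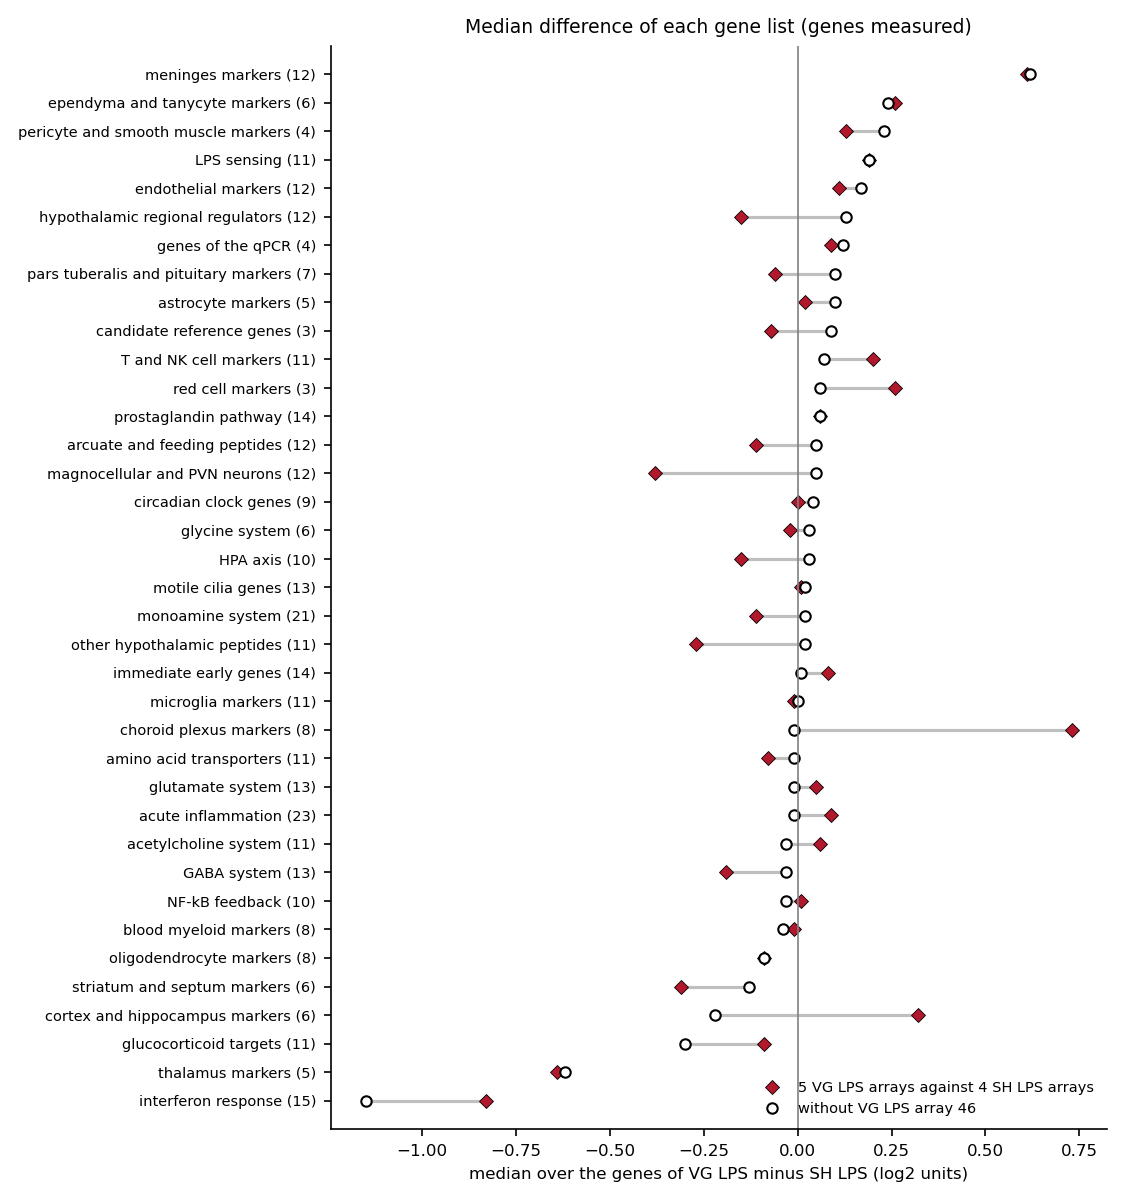
Median difference, VG LPS minus SH LPS in log2 units, over the measured genes of each of 37 gene lists, with the number of genes measured in brackets. Diamonds hold all 9 arrays and open circles leave out VG LPS array 46: meninges markers (0.61 and 0.62) and LPS sensing (0.19 and 0.19) hardly moved, choroid plexus markers did (0.73 and -0.01), and interferon response genes lay lowest at -0.83 and -1.15.

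Interferon response genes had the lowest median of the 37 lists, -0.83, and lay lower in VG LPS for 14 of 15 measured genes of 21 listed. None of the 15 had an unadjusted p under 0.05, and none was without overlap between the groups. Promoters of 4 of them and of Nfkbia are shown because they hold sequences that interferon-activated factors and NF-kB are known to bind. Each line gives, from RefSeq on GRCr8, the last 150 bases before the start site, or for Cxcl10 the 150 that begin at position -250, read 5′ to 3′ on the strand of the gene. Capitals mark a pair of GAAA runs separated by 2 bases of any kind, the core of the interferon-stimulated response element, or GGGA followed by any base and then TTTCC, a kappa B sequence bound by NF-kB. Both strands were searched, so a match may stand as its reverse complement. By these patterns the stretch of Gbp5 holds 1 of each. Other forms of either sequence were not searched for, so letters in lower case do not show that a stretch lacks them.
Cxcl10, chr14:15988816-15988965, plus strand: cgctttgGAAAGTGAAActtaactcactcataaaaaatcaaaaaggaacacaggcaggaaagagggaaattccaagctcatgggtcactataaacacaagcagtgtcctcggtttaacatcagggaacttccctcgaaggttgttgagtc
Ifit3, chr1:241527176-241527325, plus strand: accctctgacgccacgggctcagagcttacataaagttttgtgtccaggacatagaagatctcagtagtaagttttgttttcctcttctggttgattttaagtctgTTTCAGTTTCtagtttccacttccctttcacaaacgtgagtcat
Rsad2, chr6:48788121-48788270, minus strand: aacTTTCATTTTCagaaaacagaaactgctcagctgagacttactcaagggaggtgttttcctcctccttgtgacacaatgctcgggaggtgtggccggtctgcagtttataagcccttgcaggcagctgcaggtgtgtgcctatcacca
Gbp5, chr2:233910849-233910998, plus strand: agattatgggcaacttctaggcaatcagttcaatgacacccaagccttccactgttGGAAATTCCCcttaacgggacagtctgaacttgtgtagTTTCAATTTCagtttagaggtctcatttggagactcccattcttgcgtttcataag
Nfkbia, chr6:78597073-78597222, minus strand: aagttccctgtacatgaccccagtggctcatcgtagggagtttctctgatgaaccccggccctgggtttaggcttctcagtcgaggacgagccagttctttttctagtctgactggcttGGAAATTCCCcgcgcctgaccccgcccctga

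Over windows of 300 bases, the interferon element was found in 5 of the 12 interferon response genes with a promoter in the RefSeq table (41.7%), against 1312 of all 33469 promoters (3.92%). The kappa B sequence was found in 3 of 7 NF-kB feedback genes (42.9%), against 121 of all promoters (0.362%). A match describes the letters only, and no factor was measured here.

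Cxcl10, the chemokine that draws activated T cells and one of the strongest interferon targets, carried 7.17, 9.02, 4.08, 4.91 and 8.60 in VG LPS arrays 9, 10, 11, 12 and 46. It carried 9.10, 4.13, 9.50 and 8.01 in SH LPS arrays 5, 6, 7 and 42. The low values belonged to VG LPS arrays 11 and 12 and SH LPS array 6, and values in rats without LPS were 3.81 to 4.61 in VG NaCl and 4.24 to 5.27 in SH NaCl. Each LPS group thus held both high and low arrays. The difference was -0.93 ± 1.14 (SE; limma, adjusted p = 1) and -1.39 ± 1.19 without array 46 (adjusted p = 0.999).

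Gbp5, a guanylate-binding protein that assembles inflammasomes, carried 5.79, 8.14, 3.10, 3.27 and 6.14 in the VG LPS arrays in the same order, against 7.62, 3.33, 7.97 and 6.18 in the SH LPS arrays. The same arrays were low as for Cxcl10. Ifit3, an antiviral protein that binds foreign RNA together with its relatives, showed 6.65, 7.74, 3.29, 3.19 and 7.34 in VG LPS, against 8.12, 2.81, 8.07 and 6.99 in SH LPS. Rsad2, the antiviral enzyme viperin, had the largest difference of the list with all arrays, at -1.06 ± 0.86 (limma, adjusted p = 1). Without array 46 it had -1.25 ± 0.92, and the chemokine gene Cxcl9 had the largest, at -1.52 ± 1.11. Irf9, the DNA-binding subunit of the complex that carries type I interferon signals to the nucleus, was the single gene of the list with a difference above 0 (0.19 ± 0.16, and 0.17 ± 0.17 without array 46).

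The arrays within each group lay far apart, and the median of the list moved with the array left out. It lay between -0.25, without SH LPS array 7, and -1.59, without SH LPS array 6. It was -0.36 without SH LPS array 5, -0.28 and -0.31 without VG LPS arrays 11 and 12, -1.30 without VG LPS array 10, -1.15 without array 46 and -1.12 within arrays 1 to 40. Levels of the list in VG LPS were -0.14, 1.25, -1.62, -1.50 and 0.66, against 1.18, -1.71, 1.61 and 0.28 in SH LPS. High and low arrays stood in both groups, and their ranges overlapped. Among the 17 LPS arrays of other pretreatments they spanned -1.84 to 1.61, so arrays at a low level were not confined to operated rats.

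**Figure D2:**
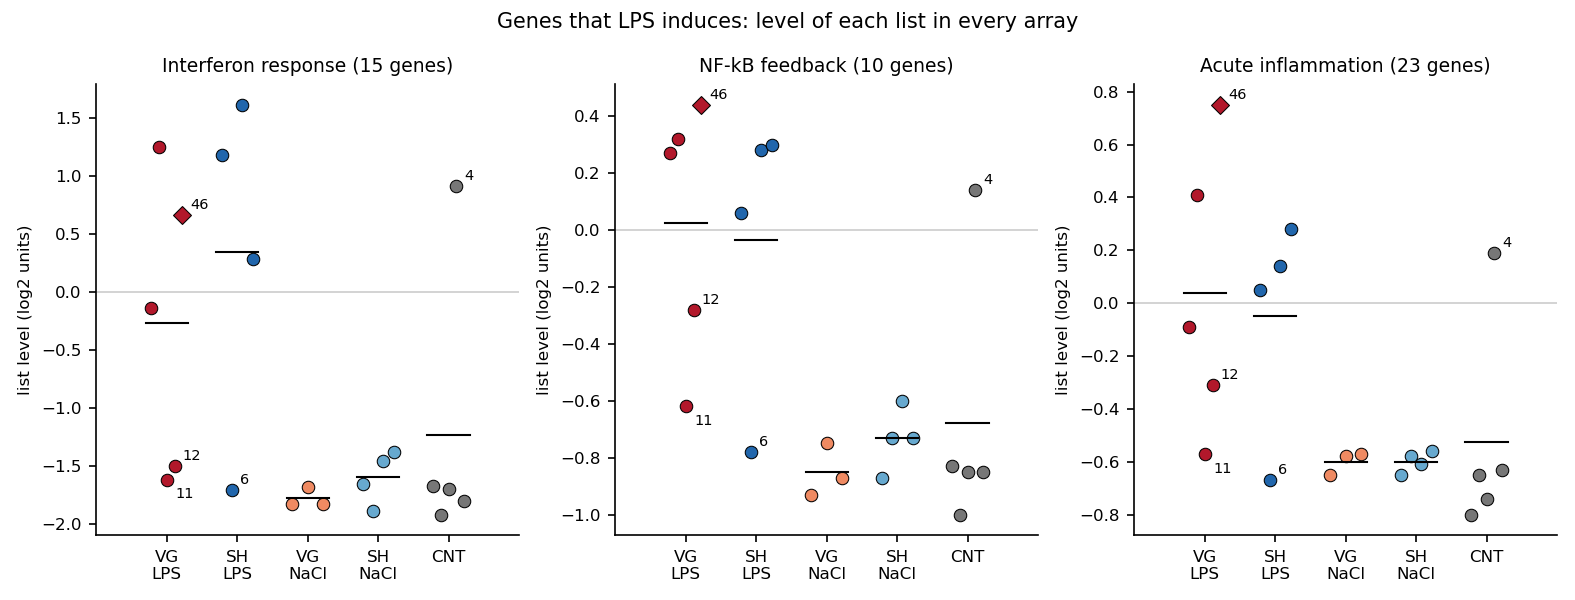
Level of 3 lists of LPS-induced genes, in log2 units relative to the mean of the 9 LPS arrays, in every array of the 5 groups, with bars at the group means and a diamond for VG LPS array 46. VG LPS arrays 11 and 12, SH LPS array 6 and CNT array 4 are numbered: at interferon genes the first 3 of these sit among the saline arrays (-1.62, -1.50 and -1.71) and CNT array 4 at 0.91 among the LPS arrays.

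NF-kB feedback genes, among them the inhibitors that NF-kB induces to end its own activity, and acute inflammation genes showed a like split of arrays within the groups, with medians near 0. Nfkbia, the inhibitor that holds NF-kB in the cytoplasm, carried 7.73, 7.57, 5.67, 6.08 and 8.32 in VG LPS arrays 9, 10, 11, 12 and 46, against 7.56, 5.56, 7.75 and 7.53 in SH LPS arrays 5, 6, 7 and 42. The low arrays were again 11, 12 and 6, and the difference was -0.02 ± 0.50 (limma, adjusted p = 1) and -0.33 ± 0.49 without array 46. The median of the 10 measured feedback genes was 0.01, with 5 higher and 5 lower, and -0.03 without array 46. None had a p under 0.05 in either fit.

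Of 23 acute inflammation genes 18 lay higher in VG LPS, with a median of 0.09, but 11 lay higher without array 46, with a median of -0.01. None had a p under 0.05 in either fit. Ccl2, the chemokine for monocytes, carried 6.45, 7.05, 3.44, 2.49 and 7.45 in VG LPS, against 6.33, 3.36, 6.59 and 6.69 in SH LPS. Its difference was -0.37 ± 0.94 (limma, adjusted p = 1) and -0.89 ± 0.94 without array 46 (adjusted p = 0.999), both no larger than the SE. Tnf and Il1b, the first cytokines of the response, differed by 0.33 ± 0.29 and 0.20 ± 0.28, and by 0.31 ± 0.31 and 0.06 ± 0.28 without array 46. Il6 differed by -0.01 ± 0.33, and by -0.31 ± 0.29 without array 46. Icam1, the adhesion molecule for leukocytes, had 0.38 ± 0.37 and 0.23 ± 0.39 without array 46, and Lcn2, an acute-phase protein that withholds iron, -0.32 ± 0.51 and -0.65 ± 0.50. The adjusted p of each of these 5 genes was 1 with all arrays and 0.999 without array 46 (limma).

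The receptor side of the LPS pathway lay slightly higher in VG LPS. Of 11 measured genes of LPS sensing 9 were higher, with a median of 0.19 with and without array 46, and 2 of them, Tirap and Ly96, had an unadjusted p under 0.05, of which Tirap alone did so without array 46. Tirap, the adaptor that links Toll-like receptor 4 to MyD88, carried 3.85, 4.68, 4.47, 3.88 and 4.39 in VG LPS arrays 9, 10, 11, 12 and 46, against 3.69, 3.43, 3.94 and 4.00 in SH LPS arrays 5, 6, 7 and 42. Only VG LPS arrays 9 and 12 reached into the SH LPS range. The difference was 0.49 ± 0.18 (limma, adjusted p = 1) and 0.46 ± 0.19 without array 46 (adjusted p = 0.975). Ly96, which encodes the MD-2 protein that holds LPS on the receptor, differed by 0.61 ± 0.25 (adjusted p = 1) and by 0.55 ± 0.26 without array 46 (adjusted p = 0.988), with VG LPS array 9 inside the SH LPS range. The receptor Tlr4 itself had 0.19 ± 0.16 and its adaptor Myd88 0.31 ± 0.19, and without array 46 they had 0.19 ± 0.18 and 0.32 ± 0.20. The median of the list was 0.09 without SH LPS array 6 and 0.12 without VG LPS array 11. Myd88 was low in SH LPS array 6 (4.23, against 4.98 to 5.10 in the other SH LPS arrays), as LPS-induced genes were. The fit without arrays 11, 12, 6 and CNT 4 is therefore not used for this list.

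Genes of the meninges, the membranes around the brain, formed a list whose median lay above 0 to a like extent with and without array 46. All 12 measured genes of 13 listed lay higher in VG LPS, with a median of 0.61, and 6 of them had an unadjusted p under 0.05, where 2.13% of all genes did so in that direction. Without array 46 the median was 0.62, with 12 of 12 higher and 5 under 0.05. It was 0.71 without arrays 11, 12, 6 and CNT 4, and 0.59 within arrays 1 to 40. The 12 genes were measured in the same 9 arrays, so their counts are not counts of independent results. Per array the levels of the list overlapped between the groups, with VG LPS array 11 at -0.19 and SH LPS array 6 at -0.11. In bulk tissue a larger number of cells of a type and more RNA per cell cannot be told apart, and how much meningeal tissue each dissection held was not measured.

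Omd, the matrix proteoglycan osteomodulin, carried 4.81, 5.95, 4.60, 5.71 and 6.28 in VG LPS arrays 9, 10, 11, 12 and 46, against 4.47, 4.01, 4.44 and 4.38 in SH LPS arrays 5, 6, 7 and 42. The groups did not overlap, although the lowest VG LPS array was close to the highest SH LPS array. The difference was 1.15 ± 0.34 (limma, adjusted p = 1), a 2.21-fold higher mean, and 0.94 ± 0.33 without array 46 (adjusted p = 0.941).

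Lum, the small proteoglycan lumican that spaces collagen fibrils, had 4.20, 4.47, 4.03, 4.10 and 4.31 in VG LPS, against 3.10, 3.76, 3.27 and 3.63 in SH LPS. It was the other gene of the list without overlap, at 0.78 ± 0.26 (limma, adjusted p = 1) and 0.76 ± 0.28 without array 46. Ogn, the proteoglycan osteoglycin, carried 6.63, 7.81, 6.51, 8.09 and 7.96 in VG LPS, against 5.99, 6.71, 5.98 and 6.07 in SH LPS, with VG LPS arrays 9 and 11 just under SH LPS array 6. Its difference was 1.21 ± 0.41 (adjusted p = 1), the largest of the list, and 1.07 ± 0.43 without array 46.

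Aldh1a2, the retinoic acid enzyme of meningeal fibroblasts, differed by 1.04 ± 0.45 (limma, adjusted p = 1), Slc6a13, a GABA and taurine transporter of the meninges, by 0.98 ± 0.41 and Col1a2, a chain of type I collagen, by 0.70 ± 0.27, each with an adjusted p of 1. Without array 46 these were 1.06 ± 0.49, 0.92 ± 0.45 and 0.76 ± 0.29. Col1a1, the other chain of that collagen, had 0.46 ± 0.25, and 0.43 ± 0.26 without array 46, and Dcn, the proteoglycan decorin, 0.38 ± 0.22 and 0.32 ± 0.23. Pdgfra, which oligodendrocyte precursors also express strongly, had the smallest difference of the list, 0.09 ± 0.13, and 0.09 ± 0.14 without array 46.

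Ptgds encodes the prostaglandin D synthase of the brain, which is made by meningeal cells and oligodendrocytes and also carries lipids in the cerebrospinal fluid. It carried 9.99, 10.75, 9.67, 10.74 and 10.69 in VG LPS arrays 9, 10, 11, 12 and 46, against 9.14, 9.59, 9.23 and 8.80 in SH LPS arrays 5, 6, 7 and 42. Every VG LPS array lay above every SH LPS array, and the difference was 1.18 ± 0.33 (limma, adjusted p = 1), a 2.27-fold higher mean. It was 1.10 ± 0.35 without array 46 (adjusted p = 0.941) and 0.97 within arrays 1 to 40. VG LPS arrays 10, 12 and 46 were highest for Ptgds, for Ogn and in the level of the meninges list (0.55, 0.67 and 0.43), while arrays 9 and 11 were lowest for all of these (-0.01 and -0.19 in the list). The 8 measured oligodendrocyte markers had a median of -0.09.

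Rats without LPS gave a further background. The meninges level was -0.54, -0.11, -0.52 and -0.27 in SH LPS, near those of SH NaCl (-0.52 to 0.20) and VG NaCl (-0.76 to 0.03). The VG LPS levels, -0.19 to 0.67, lay within the range of the untouched CNT rats, -0.14 to 0.82, save array 11 at -0.19. Ptgds spanned 9.93 to 11.06 in CNT, 8.95 to 10.03 in VG NaCl and 8.82 to 10.30 in SH NaCl. Bmp7, a growth factor of meninges and choroid plexus, was not on the list. Like Ptgds, it was among the genes picked for the smallest p-values in this same comparison, so its difference is not independent of that choice. It carried 4.03, 4.68, 4.47, 4.87 and 5.30 in VG LPS, against 3.32, 3.78, 3.76 and 3.19 in SH LPS. The difference was 1.16 ± 0.30 (limma, adjusted p = 1) and 1.00 ± 0.31 without array 46 (adjusted p = 0.941). Its values in CNT, 3.50 to 4.96, spanned both groups. Whether the share of meninges in the dissected tissue had a part in these differences was not tested.

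**Figure D3:**
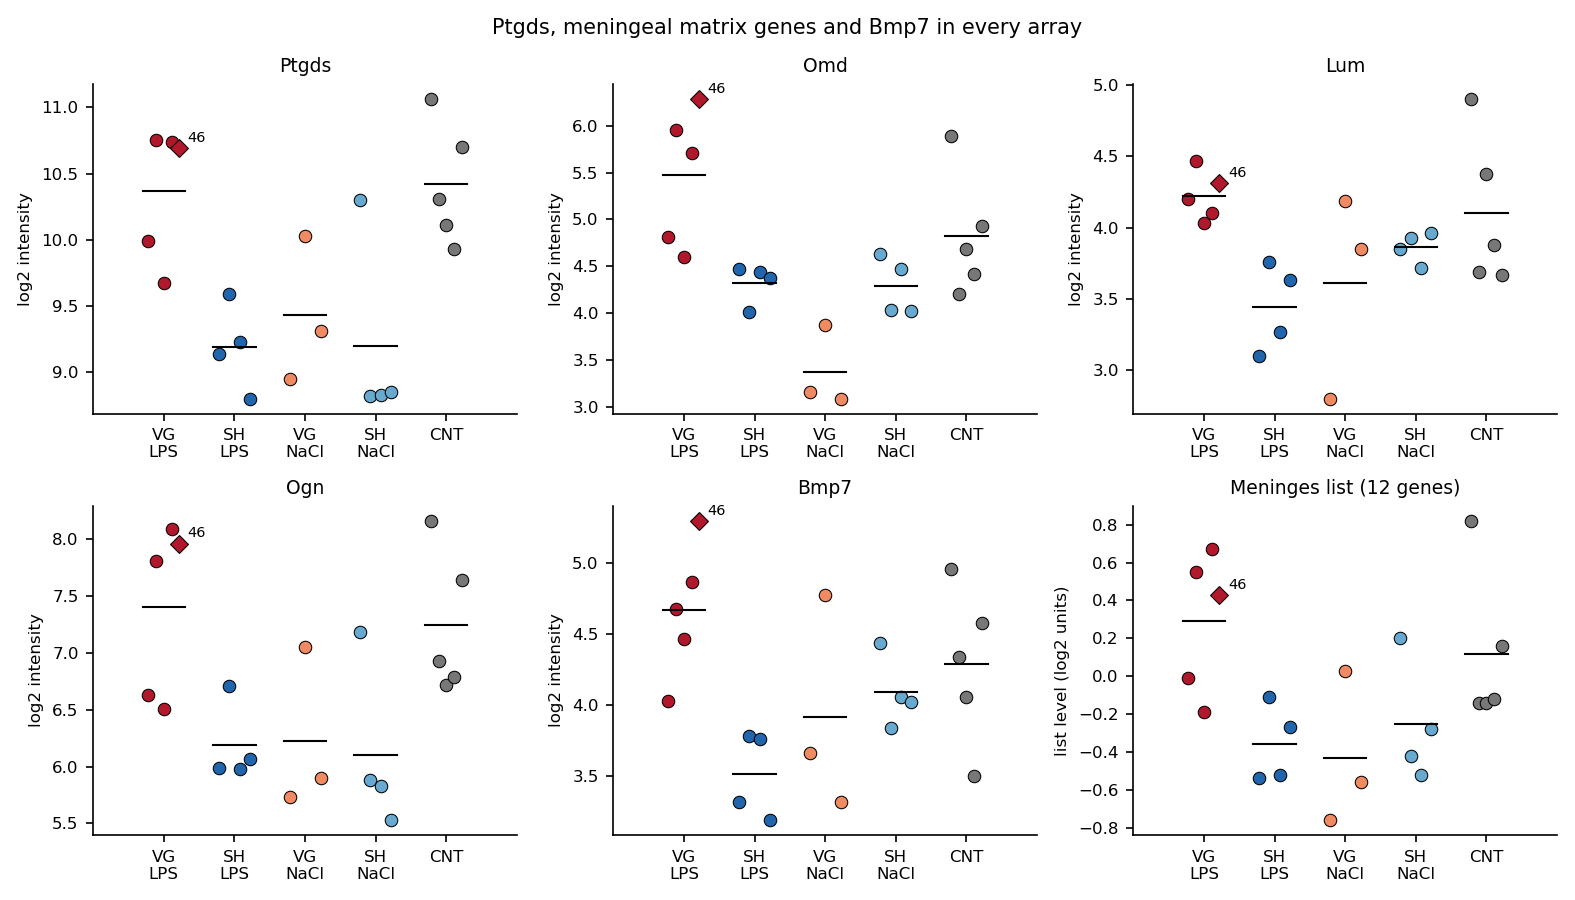
Log2 intensity of Ptgds, Omd, Lum, Ogn and Bmp7 and the level of the 12 meninges markers (log2 units) in every array of the 5 groups, with bars at the group means and a diamond for VG LPS array 46. All 5 VG LPS arrays lie above all 4 SH LPS arrays for Ptgds, Omd, Lum and Bmp7, and CNT arrays reach the VG LPS values of Ptgds (9.93 to 11.06).

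The rest of the prostaglandin pathway gave no common direction: 10 of 14 measured genes, Ptgds included, lay higher, with a median of 0.06. Besides Ptgds, Slco2a1 above and Ptger3 below had an unadjusted p under 0.05, and without array 46 Ptgds alone did. Ptgs2, the inducible cyclooxygenase that makes the prostaglandins of fever, carried 6.16, 6.60, 5.20, 5.77 and 6.89 in VG LPS, against 6.37, 5.05, 6.23 and 6.00 in SH LPS, a difference of 0.21 ± 0.39 (limma, adjusted p = 1) and of 0.02 ± 0.39 without array 46. Slco2a1, the transporter that takes prostaglandins into cells, had 0.72 ± 0.32 and 0.50 ± 0.31 without array 46. Ptger3, the prostaglandin E receptor that triggers fever in the preoptic area, carried 3.89, 4.61, 3.43, 3.75 and 3.28 in VG LPS, against 4.41, 4.71, 3.87 and 4.69 in SH LPS. Its difference was -0.63 ± 0.28 (adjusted p = 1) and -0.50 ± 0.29 without array 46, and the groups overlapped.

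Lists of hypothalamic neuropeptide genes had medians below 0 when array 46 was counted and near 0 when it was left out. The 12 measured genes of magnocellular and paraventricular neurons had a median of -0.38 with 9 lower, and of 0.05 with 10 higher without array 46. Oxt carried 9.82, 9.79, 9.37, 9.55 and 4.95 in VG LPS arrays 9, 10, 11, 12 and 46, against 9.67, 9.81, 9.92 and 10.28 in SH LPS arrays 5, 6, 7 and 42. The difference of -1.23 ± 0.68 (limma, adjusted p = 1) was -0.29 ± 0.28 without array 46. Avp, which encodes vasopressin, was at 4.82 in array 46 and between 8.88 and 9.75 in the other VG LPS arrays, with a difference of -0.90 ± 0.69, or 0.03 ± 0.31 without it. Trh, the releasing hormone for thyrotropin, was at 2.78 in array 46 and between 6.56 and 7.35 in the others, and the difference was -0.70 ± 0.59, or 0.12 ± 0.18 without it.

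The same array decided the medians of choroid plexus and of cortex and hippocampus markers. The 8 choroid plexus markers had a median of 0.73 with 8 higher, and of -0.01 with 4 higher without array 46. Its level of that list was 3.29, against -0.58 to -0.17 in the other VG LPS arrays and -0.69 to -0.29 in SH LPS. Markers of cortex and hippocampus had a median of 0.32, or -0.22 without array 46, with Neurod6, a transcription factor of cortical pyramidal cells, at 8.39 in array 46 and at 3.14 to 4.12 in the other VG LPS arrays. Hypothalamic regional regulators, the transcription factors that pattern this region, stood at -1.16 in array 46 and at 0.11 to 0.43 in the other VG LPS arrays. The array labelled VG LPS 46 thus went against the labelled tissue by its markers, while the other 8 all had Oxt above 9 and Avp above 8.

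**Figure D4:**
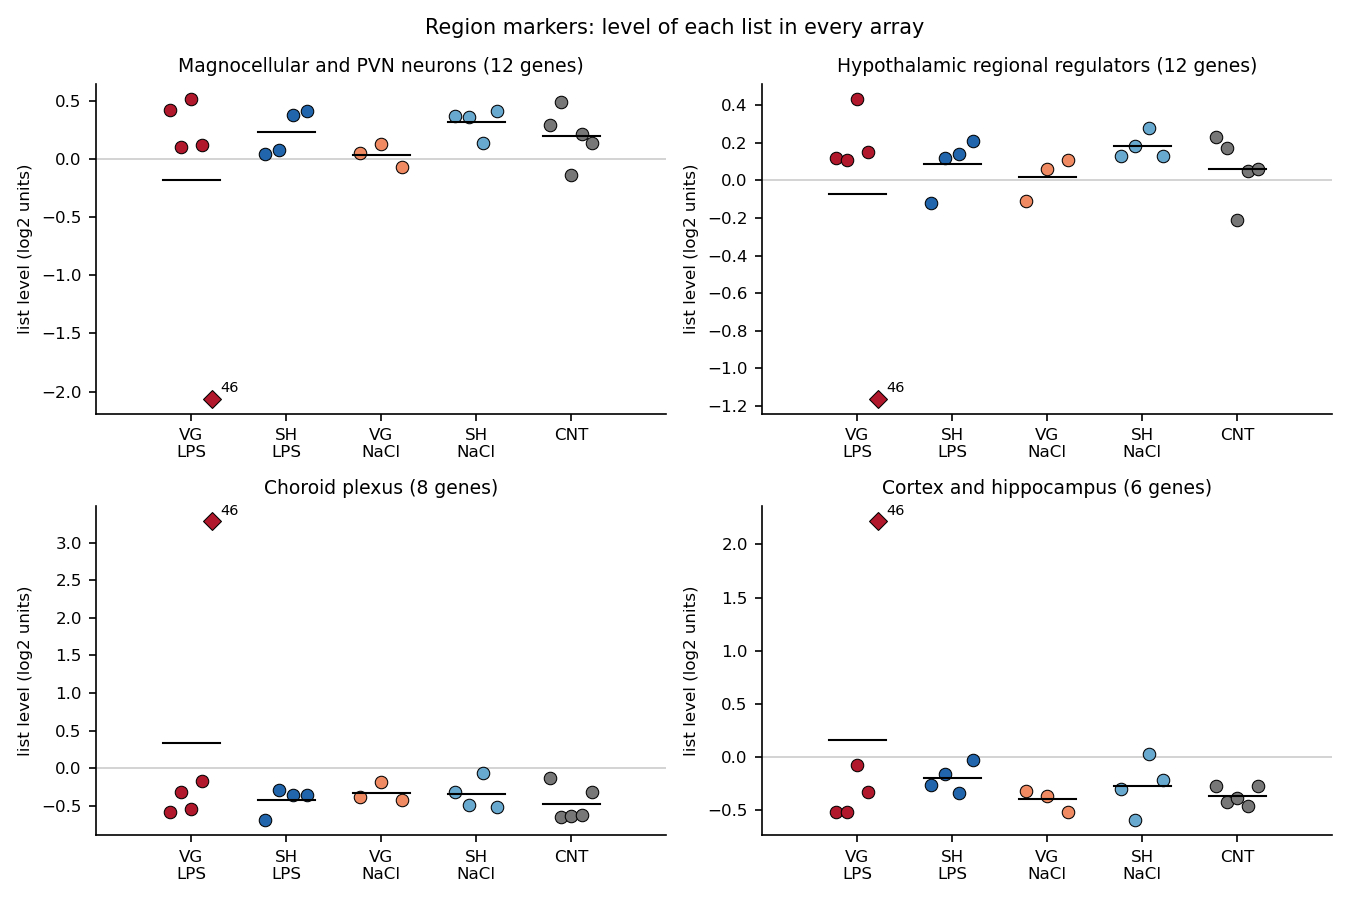
Level of 4 lists of region markers, in log2 units relative to the mean of the 9 LPS arrays, in every array of the 5 groups, with bars at the group means. VG LPS array 46 (diamond) lies at -2.06 for magnocellular and paraventricular neurons and at 3.29 for choroid plexus, apart from all 20 others.

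Thalamus markers, by contrast, lay lower in both fits. The 5 measured genes had a median of -0.64, and -0.62 without array 46, but -0.30 without arrays 11, 12, 6 and CNT 4. With all arrays 2 of them, Gbx2 and Plekhg1, had an unadjusted p under 0.05, and 1 gene lay above 0, at 0.15. Without array 46 the highest difference was 0.00 and the lowest -0.87. In that fit 2 genes were under 0.05, among them Gbx2 but not Plekhg1. Gbx2, a transcription factor of thalamic neurons, carried 4.73, 4.29, 4.91, 3.27 and 4.23 in VG LPS, against 4.29, 5.32, 4.75 and 6.27 in SH LPS. The lowest was VG LPS array 12 and the highest SH LPS array 42, and the difference was -0.87 ± 0.37 (limma, adjusted p = 1) and -0.86 ± 0.40 without array 46. Plekhg1 had -0.67 ± 0.32 and Ramp3, a partner of calcitonin-family receptors, -0.64 ± 0.36, and without array 46 they had -0.60 ± 0.34 and -0.62 ± 0.39. The level of the list was 0.11, 0.00, -0.47, -0.89 and 0.14 in VG LPS, against -0.15, 0.40, 0.05 and 0.80 in SH LPS, so the groups overlapped.

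In either fit, 0 measured genes of the stress axis and 1 of its hormone targets, Sult1a1, were without overlap between the groups. Crh, the releasing hormone that starts the pituitary and adrenal response, carried 4.06, 4.27, 4.80, 4.84 and 3.43 in VG LPS, against 4.43, 4.03, 4.36 and 4.93 in SH LPS. The difference was -0.16 ± 0.31 (limma, adjusted p = 1) and 0.05 ± 0.29 without array 46. Pomc, the precursor of ACTH and melanocortins, had -0.47 ± 0.43 and 0.07 ± 0.24 without array 46, with array 46 at 3.96 and the other VG LPS arrays between 6.06 and 7.04. Of 11 measured glucocorticoid targets 8 lay lower, with a median of -0.09 and of -0.30 without array 46. Within the groups their levels were lowest in VG LPS arrays 11 and 12 (-0.43 and -0.47) and in SH LPS array 6 (-0.88). Fkbp5, the chaperone through which the glucocorticoid receptor limits itself, had 0.28 ± 0.24 with array 46 at 7.64, and 0.02 ± 0.18 without it.

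Sult1a1, a sulfotransferase that glucocorticoids induce, was the single gene of that list with an unadjusted p under 0.05, in both fits. It carried 6.08, 6.13, 6.21, 6.38 and 7.24 in VG LPS arrays 9, 10, 11, 12 and 46, against 5.58, 5.14, 6.06 and 5.69 in SH LPS arrays 5, 6, 7 and 42. The groups did not overlap, by a margin of VG LPS array 9 over SH LPS array 7 that was small beside the spread of either. The difference was 0.79 ± 0.26 (limma, adjusted p = 1) and 0.58 ± 0.24 without array 46 (adjusted p = 0.975). Mt2A, a metallothionein induced by both glucocorticoids and cytokines, had -0.43 ± 0.47 and -0.76 ± 0.45 without array 46, with 5.96, 6.56, 6.03, 5.68 and 7.72 in VG LPS, against 6.62, 5.27, 7.99 and 7.37 in SH LPS.

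Among feeding peptides, Qrfp, whose peptide promotes feeding in rodents, carried 4.11, 4.11, 4.62, 3.63 and 4.53 in VG LPS, against 4.55, 5.06, 4.75 and 4.88 in SH LPS. Only VG LPS array 11 reached above the lowest SH LPS array. Its difference was -0.61 ± 0.23 (limma, adjusted p = 1) and -0.69 ± 0.24 without array 46 (adjusted p = 0.941). Npy, the main orexigenic peptide of the arcuate nucleus, had 0.29 ± 0.15 and 0.33 ± 0.16 without array 46 (adjusted p = 0.981). Sst, which encodes somatostatin, had -0.39 ± 0.21 and -0.18 ± 0.17 without array 46, and Gal, the galanin gene, -0.76 ± 0.49 and -0.10 ± 0.20.

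Lists of transmitter genes had medians within 0.03 of 0 without array 46. The 13 measured genes of the GABA system had a median of -0.19 and of -0.03 without array 46, the 13 of the glutamate system 0.05 and -0.01, the 6 of the glycine system -0.02 and 0.03, and the 21 of the monoamine system -0.11 and 0.02. Slc17a6, the vesicular glutamate transporter of the hypothalamus, carried 8.82, 8.50, 8.61, 8.44 and 6.65 in VG LPS, against 8.60, 8.74, 8.60 and 8.58 in SH LPS. Array 46 alone lay low, and the difference of -0.43 ± 0.29 was -0.04 ± 0.14 without it. Gabrq, a GABA receptor subunit typical of the hypothalamus, had -0.58 ± 0.57 and 0.22 ± 0.19 without array 46.

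Single transmitter genes had a p under 0.05 in one fit only. Grin3a, an inhibitory subunit of the NMDA receptor, had -0.42 ± 0.19 (limma, adjusted p = 1) and -0.21 ± 0.13 without array 46. In the fit without array 46, 1 other gene of the glutamate system was lower at a p under 0.05. The lowest difference of that list was then -0.87. Adrb1, the beta 1 adrenergic receptor, carried 4.67, 4.68, 4.82, 4.26 and 5.10 in VG LPS, against 4.83, 5.16, 4.89 and 5.13 in SH LPS. Without array 46 its groups did not overlap, at -0.39 ± 0.16 (adjusted p = 0.975), and with it the difference was -0.30 ± 0.16. The 11 amino acid transporters had a median of -0.08 and of -0.01 without array 46, with 0 at a p under 0.05 in either fit.

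Of the glial and vascular lists, the 6 measured markers of ependyma and tanycytes, the cells that line the third ventricle, all lay higher in VG LPS, with a median of 0.26, of 0.24 without array 46 and of 0.12 without arrays 11, 12, 6 and CNT 4. Of these, Vim and Col23a1 had an unadjusted p under 0.05. Vim, the intermediate filament vimentin of tanycytes and reactive glia, carried 8.90, 9.00, 8.76, 9.19 and 8.71 in VG LPS arrays 9, 10, 11, 12 and 46, against 8.64, 8.60, 8.45 and 8.58 in SH LPS arrays 5, 6, 7 and 42. The groups did not overlap, and the difference was 0.35 ± 0.15 (limma, adjusted p = 1) and 0.40 ± 0.16 without array 46 (adjusted p = 0.975). Vim was among 7 genes that the study had chosen for qPCR from the p-values of these arrays, so its difference is not independent of that choice. The paper reports that, by qPCR on samples that included those of the arrays, the chosen genes did not respond to the experimental conditions. Of the 3 chosen genes other than Vim that had a cluster of 1 symbol, Oxt is given above. Actn2, an actin crosslinker, had 0.32 ± 0.19 and Gabrg1, a GABA receptor subunit, -0.14 ± 0.15. Without array 46 they had 0.26 ± 0.20 and -0.03 ± 0.13.

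Col23a1, a membrane collagen, had 0.44 ± 0.21 (limma, adjusted p = 1) and 0.37 ± 0.22 without array 46. Nes, the filament nestin, had 0.29 ± 0.18 with array 46 at 3.33, below SH LPS at 3.57 to 3.68, and 0.44 ± 0.16 without it (adjusted p = 0.942), when the groups did not overlap. Microglia markers had a median of -0.01 over 11 genes, astrocyte markers of 0.02 over 5 and endothelial markers of 0.11 over 12, with 0 under 0.05 in each list. Without array 46 the endothelial median was 0.17, with 11 of 12 higher, and Abcb1a, the efflux pump of brain capillaries, had 0.42 ± 0.19 (adjusted p = 0.975), and 0.24 ± 0.22 with all arrays. The endothelial median was 0.01 without arrays 11, 12, 6 and CNT 4, and 0.01 to 0.18 with each array left out. Cldn5, the claudin of capillary tight junctions, was chosen after its values were seen. It carried 6.23, 5.24, 6.77, 6.65 and 4.50 in VG LPS, against 5.52, 6.71, 5.09 and 5.75 in SH LPS. VG LPS arrays 11 and 12 and SH LPS array 6 were highest, near the means of VG NaCl (6.86 ± 0.22, SD, n = 3) and SH NaCl (6.84 ± 0.14, SD, n = 4). Other genes of the list did not all share this order. Within their groups, Cdh5 and Esam were lowest in VG LPS array 11 (5.41 and 5.07) and SH LPS array 6 (5.22 and 4.45). Abcb1a was highest of SH LPS in array 6 (7.02).

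The other lists stood within 0.31 of 0. With all arrays and without array 46 the medians were 0.08 and 0.01 for immediate early genes, which neuronal activity induces, -0.15 and 0.03 for the stress axis, -0.11 and 0.05 for arcuate and feeding peptides, and -0.27 and 0.02 for other hypothalamic peptides. They were 0.06 and -0.03 for the acetylcholine system, 0.00 and 0.04 for circadian clock genes, 0.01 and 0.02 for motile cilia genes, -0.15 and 0.13 for regional regulators and -0.07 and 0.09 for candidate reference genes. Cells that blood or neighbouring tissue could add gave -0.01 and -0.04 for blood myeloid markers, 0.26 and 0.06 for red cell markers, 0.20 and 0.07 for T and NK cell markers, 0.13 and 0.23 for pericyte and smooth muscle markers, -0.06 and 0.10 for pars tuberalis and pituitary markers and -0.31 and -0.13 for striatum and septum markers. Among these 15 lists 3 genes had an unadjusted p under 0.05 with all arrays, with Ahsp, a red cell chaperone of haemoglobin, and Klra1, an NK cell receptor, higher and Qrfp lower.

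The vagotomy difference under LPS was then set against the vagotomy difference under saline, VG NaCl minus SH NaCl, which shares no array with it. The question was whether the difference depends on the challenge, and it was tested as the difference of both differences. Limma called 1 of 36685 clusters (0.00273%) at an adjusted p under 0.05, and 1971 had an unadjusted p under 0.05 (5.37%). Without array 46 it called 0 (0%), with 2432 under 0.05 (6.63%). Of the 545 genes with a p under 0.05 under LPS, 296 had the same sign under saline (54.3%), against 53.2% of all genes, and without array 46 the shares were 48.7% and 50.4%. Under saline alone 0 clusters were called, with 2924 under 0.05 (7.97%).

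The cluster called, 17737097, has no gene symbol in the annotation used. It carried 2.34, 2.01, 2.43, 2.29 and 2.22 in VG LPS and 3.67, 3.79, 3.17 and 3.10 in SH LPS, and 3.35, 3.87 and 3.24 in VG NaCl and 2.48, 2.19, 3.09 and 2.75 in SH NaCl. The groups did not overlap in either pair, and the directions were opposite: -1.17 ± 0.19 under LPS and 0.86 ± 0.22 under saline, with a difference of both of -2.03 ± 0.29 (limma, adjusted p = 0.0415). Without array 46 this was -2.02 ± 0.31 with an adjusted p of 0.107. Its mean over the 56 arrays, 2.78, was dim, with 22.3% of clusters below it.

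Next in order was Vim, with 1.20 for the difference of both differences (limma, adjusted p = 0.267) and 1.25 without array 46 (adjusted p = 0.193). Its values were 7.98 to 8.43 in VG NaCl, against 8.87 to 9.35 in SH NaCl, so vagotomized rats lay lower under saline (-0.86, limma, adjusted p = 0.268) and higher under LPS. The CNT arrays, at 8.54 to 9.19, spanned the VG LPS range. Itgb4, an integrin chain of cells that rest on a basement membrane, had the same pattern, with 4.40 to 4.82 in VG LPS, against 4.10 to 4.45 in SH LPS, and with 3.97 to 4.24 in VG NaCl, against 4.55 to 5.17 in SH NaCl (1.14, adjusted p = 0.267, and 1.14 without array 46). Elk1, a transcription factor that growth factor signals activate, had 6.43 to 6.78 in VG LPS, against 6.09 to 6.38 in SH LPS, and 6.05 to 6.28 in VG NaCl, against 6.38 to 6.79 in SH NaCl (0.76, adjusted p = 0.703, and 0.73 without array 46). For Elk1 neither pair overlapped. Omd, which was not called in either fit, had a difference of both differences of 2.06, and of 1.86 without array 46. It lay at 3.09 to 3.87 in VG NaCl, against 4.02 to 4.63 in SH NaCl.

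All 3 VG NaCl arrays and 1 of 4 SH NaCl arrays were numbered in the first set, so under saline the set and the operation cannot fully be told apart. Within arrays 1 to 40, with 1 SH NaCl array left, the difference for Vim was 1.02 (adjusted p = 0.878).

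**Figure D5:**
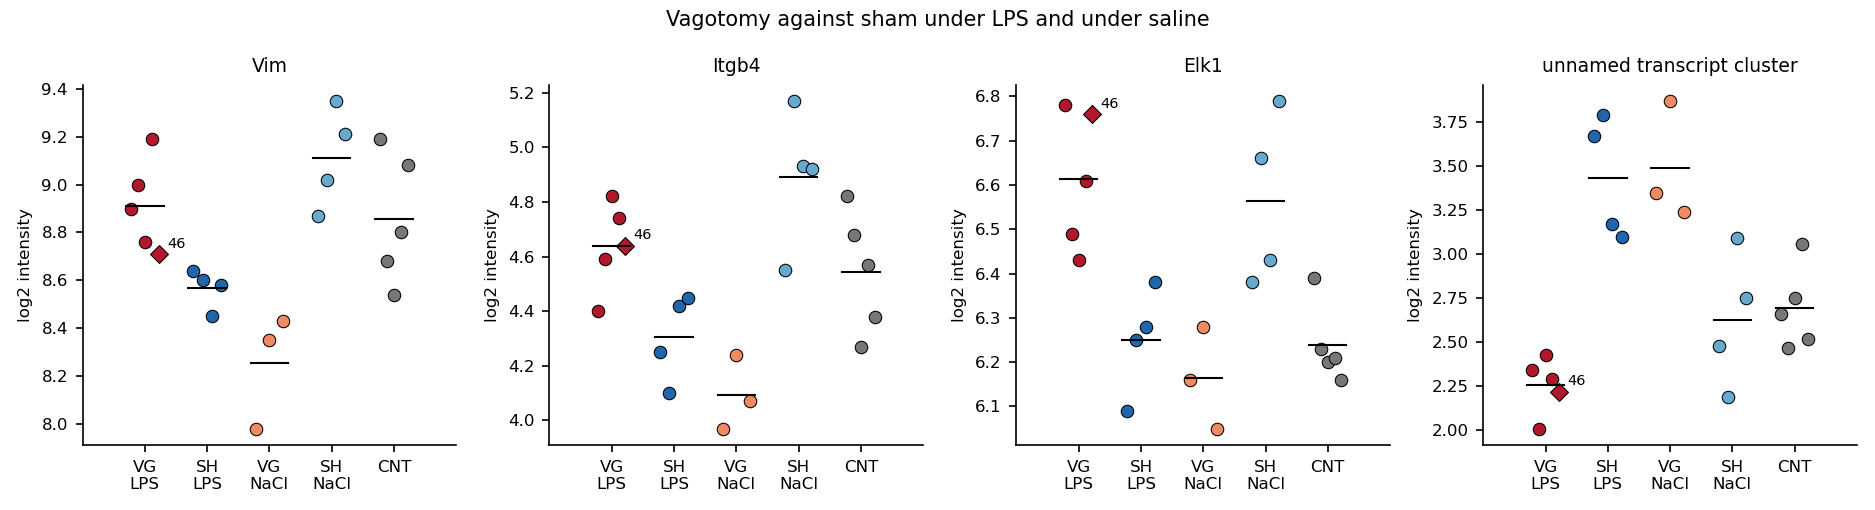
Log2 intensity of Vim, Itgb4, Elk1 and transcript cluster 17737097 in every array of the 5 groups, with bars at the group means and a diamond for VG LPS array 46. For Vim, VG LPS lies above SH LPS (8.71 to 9.19 against 8.45 to 8.64) and VG NaCl below SH NaCl (7.98 to 8.43 against 8.87 to 9.35), and for the unnamed cluster both directions are turned round.

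The smallest p-values among named genes belonged to genes of low intensity. Krtap10-9, a keratin-associated protein gene, carried 2.51, 2.92, 3.09, 2.95 and 3.35 in VG LPS, against 1.60, 1.91, 2.12 and 1.69 in SH LPS, a difference of 1.13 ± 0.19 (limma, adjusted p = 0.135) and of 1.04 ± 0.19 without array 46 (adjusted p = 0.361). Its VG NaCl and SH NaCl arrays lay between 2.35 and 2.53 and between 1.86 and 2.64. Spnl1 was the lowest in VG LPS by p, with 1.93, 1.78, 1.82, 2.17 and 2.53, against 3.20, 3.13, 3.18 and 2.75 in SH LPS, and differed by -1.02 ± 0.20 (adjusted p = 0.536) and by -1.14 ± 0.20 without array 46 (adjusted p = 0.361). Neither gene overlapped between the groups.

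Genes higher in VG LPS with no overlap between the groups and an adjusted p of 1 included Fndc1, a fibronectin-domain protein (0.71 ± 0.18), Emp3, a membrane protein of the PMP22 family (0.70 ± 0.19), Cdc42bpg, a kinase that binds the GTPase Cdc42 (0.57 ± 0.16), and Opn4, melanopsin (0.54 ± 0.15). Emp3 carried 4.15, 4.85, 4.11, 3.95 and 4.27 in VG LPS, against 3.64, 3.27, 3.60 and 3.76 in SH LPS. Without array 46 Fndc1, Emp3, Cdc42bpg and Opn4 had 0.69 ± 0.19, 0.70 ± 0.21, 0.57 ± 0.17 and 0.60 ± 0.15. Lower with no overlap were Tmem270 (-0.75 ± 0.19), Lefty1, an inhibitor of nodal signals (-0.76 ± 0.21), Raet1l, a ligand of the NK cell receptor NKG2D (-0.58 ± 0.16), and RGD1559545 (-0.76 ± 0.17), with -0.64 ± 0.19, -0.80 ± 0.23, -0.62 ± 0.17 and -0.80 ± 0.18 without array 46. Lefty1 carried 2.78, 2.61, 2.69, 2.48 and 2.81 in VG LPS, against 3.03, 3.93, 3.29 and 3.50 in SH LPS. Of the 24 genes with the smallest p-values, 12 in each direction, 11 were also among the 24 of the fit without array 46.

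Leaving out array 46 brought other genes forward. Emp2, a relative of Emp3, carried 3.61, 3.65, 3.41 and 3.91 in the 4 remaining VG LPS arrays, against 2.46, 3.14, 2.59 and 3.13 in SH LPS (0.81 ± 0.19, limma, adjusted p = 0.941). Kcnj2, an inward rectifier potassium channel, had 5.00, 4.94, 5.04 and 5.02, against 4.00, 4.39, 4.73 and 4.69 (0.55 ± 0.16, adjusted p = 0.941), and array 46 stood at 4.47. Slc18b1, a vesicular polyamine transporter, had 0.52 ± 0.15 and Ppat, the first enzyme of purine synthesis, 0.48 ± 0.14, both without overlap. Nlrp1b, an inflammasome sensor, lay lower at -0.92 ± 0.24, with 4.04, 4.10, 3.92 and 2.86 in VG LPS, against 4.63, 4.81, 4.46 and 4.69 in SH LPS, and array 46 at 4.93. Epcam, an epithelial adhesion molecule, had 0.85 ± 0.23 with overlap. With all arrays the differences were 0.70 ± 0.20 for Emp2, 0.44 ± 0.17 for Kcnj2, 0.38 ± 0.17 for Slc18b1, 0.34 ± 0.17 for Ppat, -0.68 ± 0.28 for Nlrp1b and 0.49 ± 0.32 for Epcam, each with an adjusted p of 1 (limma).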

How the data were processed

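RNA of the medial hypothalamus was hybridized to rat gene arrays. The authors deposited 1 linear intensity per transcript cluster and array, made per the labels with RMA in Affymetrix Expression Console, while the methods name Partek Genomics Suite with quantile normalization, whose effect on the values cannot be undone. The log2 of each deposited intensity was taken and nothing else was done to it. Probe brightness has no depth, and the number of arrays limits the precision. The platform annotation of the array supplied gene symbols: 14824 clusters carried 1 symbol, 829 several and 21032 none. Group means over 21 arrays were fitted by limma 3.58.1 (lmFit, contrasts.fit and eBayes under R 4.3.3), and the pipeline was tested on simulated data. Tables and figures were made with Python 3.11.15.

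The comparison, the 37 gene lists (355 of 497 genes measured) and the way of picking named genes were chosen with earlier results of these data known. It took the genes of the study's qPCR, 12 genes in each direction with the smallest p in either fit, 4 per list and a set of hypothalamic and inflammatory genes, of which the text describes those its results turn on. The promoters shown were picked after their values were seen. Lists are described by counts and medians, and no list was tested. Alternatives changed the test, the arrays in the fit, the filter, the normalization, the array set, the weights, the choice of cluster and each array in turn.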

Additional observations from a re-analysis of the deposited data

Results flagged for a closer look

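Samples far from the others of their group were looked for in 85 genes and 37 list levels, in VG LPS and in SH LPS separately. Of 244 groups of values 33 were flagged, 21 of them for VG LPS array 46. Chance flags about 1 group in 20, but the 85 genes were named from these same data and share members with the lists. The counts therefore cannot be set against that rate.

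In array 46 the low values were Oxt at 4.95, Avp at 4.82, Trh at 2.78, Gal at 3.90, Gabrq at 2.81, Slc17a6 at 6.65 and Kcnj2 at 4.47. The high values were Ttr at 11.67, Kl at 8.20, Clic6 at 7.89, Neurod6 at 8.39, Nrgn at 10.31 and Sult1a1 at 7.24. Its list levels stood out at -2.06 for magnocellular and paraventricular neurons, -1.16 for regional regulators, -0.80 for the stress axis, -0.77 for the GABA system, -1.11 for the genes of the qPCR, 3.29 for choroid plexus, 2.22 for cortex and hippocampus and 0.41 for the acetylcholine system.

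SH LPS array 6 was flagged for Nfkbia at 5.56, Birc3 at 3.48, Ccl2 at 3.36 and Myd88 at 4.23, all low, for Ogn at 6.71 and Slc17a6 at 8.74, both high, and for the astrocyte list at -0.25. SH LPS array 7 was low for Aldh1a2 at 3.07 and Pomc at 6.32. SH LPS array 5 was low for Kl at 2.90 and for the choroid plexus list at -0.69, and SH LPS array 42 for Spnl1 at 2.75.

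The vagotomy difference of transcript cluster 17737097 differed between LPS and saline by -2.03, by the limma test of the difference itself (adjusted p = 0.0415).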

How the results depend on the processing

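The count of 0 clusters called in VG LPS against SH LPS held under each of 21 alternatives, with a smallest adjusted p of 0.0816. No paired analysis was possible because the numbers in the labels are array numbers and no group shares one with another. The single call in the difference of the vagotomy differences was kept with all 56 arrays in the fit and without SH LPS array 42 or SH NaCl array 44. Under each of the other alternatives the count was 0 (0 to 1 when each of 16 arrays was left out), and the filter on dim clusters removed that cluster. Of 85 genes 72 kept their sign throughout, and 0 of the 85 was called under any alternative. Their smallest adjusted p was 0.0578 (limma), with the mean over all clusters of a gene, an alternative that is not among those 21. Sign turned within arrays 1 to 40 for Avp (0.07), Trh (0.10), Crh (0.22), Pomc (0.09), Gabrq (0.10), Ttr (-0.31), Nrgn (-0.22) and Fkbp5 (-0.01). It turned in the fit of the LPS arrays alone without array 46 for Avp (0.03), Trh (0.12), Crh (0.05), Pomc (0.07), Gabrq (0.22), Ttr (-0.10) and Nrgn (-0.22). It also turned for Nfkbia with a second quantile normalization (0.02) and for Il6 with the array set as a block (0.02). With each array left out the differences ranged from -0.54 to 0.33 for Nfkbia, -0.91 to 0.15 for Birc3, -1.16 to 0.35 for Ccl2, -0.08 to 0.44 for Ptgs2, -0.31 to 0.24 for Il6, -1.21 to 0.03 for Avp, -1.02 to 0.12 for Trh, -0.30 to 0.05 for Crh, -0.70 to 0.07 for Pomc, -0.10 to 1.75 for Ttr, -0.22 to 0.52 for Nrgn and -0.86 to 0.22 for Gabrq. The cause of these changes was not tested. The meninges median lay between 0.54 and 0.72 with each array left out. The fits without arrays 11, 12, 6 and CNT 4 and of the LPS arrays alone without array 46 were chosen after the values were seen.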
